A study of Homo sapiens with 12 samples.

Results

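The genes described here are 6 members of the feedback loop that joins p53 to its antagonist MDM2, namely MDM2, MDM4, PPM1D, CCNG1, USP7 and WRAP53. They were found by matching the Ensembl identifiers of the deposited table to these symbols, which gave 6 of its 20595 genes, and all 6 had enough counts to be tested in every comparison. RNA was sequenced from A549 and H1792, established human lung adenocarcinoma lines that the study describes as MDM2-amplified, after 48 h with RG7112 at 1 μM or with DMSO, the solvent. Each of the 4 groups had 3 replicates, so that 12 libraries were compared, and no source used here says whether the replicates were separate cultures, so p-values measure the spread between these samples only. A549 is p53 WT and H1792 p53 mutant in most of the study's text, while 1 sentence gives the reverse and 1 legend gives A549 as p53 mutant. The names of the table's columns give the dose as 0.1 μM where the labels and methods give 1 μM.

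MDM2 is a ubiquitin ligase that binds p53, blocks it and marks it for destruction, and p53 in turn switches on transcription of MDM2. MDM4, the close relative of MDM2, binds the same part of p53 and partners MDM2. PPM1D (the phosphatase WIP1) and CCNG1 (cyclin G1, which brings the phosphatase PP2A to MDM2) are further p53 target genes whose products damp p53, USP7 is a deubiquitinase that protects both MDM2 and p53, and WRAP53 encodes a scaffold protein of telomerase and Cajal bodies. RG7112 belongs to the nutlins, small molecules that fill the pocket of MDM2 where p53 binds.

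The promoter letters are shown first for MDM2, since it carries the main result below and is the gene of the loop with a known p53-driven promoter inside its first intron. RefSeq (GRCh38.p14) gives 4 windows for MDM2, each from 250 bases before to 50 bases after a transcription start. An upstream pair lies at chr12:68807922-68808226 and an internal pair at chr12:68808767-68809073. The stretch chr12:68808893-68809000 (108 bases, plus strand) of the internal windows overlaps no exon of the 34 MDM2 transcripts in GENCODE v29. Capitals mark its 2 best matches to the p53 response element, a consensus of 2 adjacent decamers without a spacer, which reads the same on both strands.

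MDM2 internal promoter: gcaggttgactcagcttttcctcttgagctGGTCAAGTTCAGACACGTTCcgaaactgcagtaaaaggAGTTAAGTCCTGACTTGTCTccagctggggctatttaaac

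The first match differed from the consensus at 2 of its 20 bases and the second at 3, with 18 bases between them. Of 35114 RefSeq windows of 300 bases, 0.649% held a match with 2 mismatches or fewer. The best match in the upstream pair of MDM2 windows had 5 mismatches, a level reached by 70.5% of windows. The best matches in the windows of the other members also had more mismatches than the internal one of MDM2, and they are shown so that their letters can be set beside those of MDM2. The match of PPM1D (chr17:60599994-60600013) had 4 mismatches, a level reached by 26.0% of all windows. That of MDM4 (chr1:204516186-204516205) had 5, and so did the window at the outermost start of USP7 (chr16:8963861-8963880, minus strand), while 2 windows at inner starts of USP7 had 4. That of CCNG1 (chr5:163437409-163437428) had 6, which 97.4% of all windows reached.
PPM1D: aggggAAGCAAACTAGGAGATGCGCgggcc
MDM4: aaataTCACAAGACCCTGCAAGTCCctcac
USP7: tttgaGAGCGAGCCGAGCCGAGCTGccgg
CCNG1: gggccGGGGAATTTGAGGCCAGATAacggg
These are matches of letters within 300 bases and say nothing about sites elsewhere in the genes or about binding. The deposited counts add up all transcripts of a gene, so use of the upstream and internal promoters of MDM2 cannot be told apart in them. WRAP53 has no sequence shown.

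The libraries held 2011916 to 6218825 estimated counts. Levels are given as CPM (counts of a gene per 1000000 counts), scaled by the TMM method over the 12 libraries. A floor was set at 3 counts, which stood for 0.465 to 1.43 CPM. All 8 epithelial markers were detected in both lines, with a summed level of 14499 to 24121 CPM in A549 and 1074 to 2194 CPM in H1792, and the 7 mesenchymal markers summed to 3494 to 3949 CPM in A549 and 14847 to 16413 CPM in H1792. Markers of alveolar type II cells summed to at most 6.79 CPM in any library, with SFTPA1 and SFTPB at 0 in A549 and NKX2-1 and SFTPC at 0 in H1792. Leukocyte markers summed to 7.23 to 104 CPM, with CD3E and LYZ at 0 in both lines, and endothelial markers to at most 1.91 CPM. Replicate 3 of A549 stood apart in both treatments: its log2 CPM correlated with replicates 1 and 2 of its group at r = 0.899 to 0.922, against 0.948 and 0.937 between those 2. Calls for the 6 genes and CDKN1A that this pair of libraries alters are given with and without it.

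MDM2 rose with RG7112 in A549 and did not pass the test in H1792. The gene (ENSG00000135679) lies at chr12:68808176-68850686 on the plus strand of GRCh38. In A549 it stood at 3.12, 9.56 and 13.0 CPM with DMSO (10, 56 and 52 counts) and at 72.8, 58.6 and 76.1 CPM with RG7112 (470, 123 and 280 counts). All treated libraries lay far above all controls, and the lowest control, with 10 counts, has an exact Poisson interval of 4.80 to 18.4 counts, which covers counting error only. The log2 fold change was 2.99 ± 0.45 (SE, n = 3 and 3), a 7.97-fold increase, with an adjusted p of 0.0102 in the quasi-likelihood test of edgeR (Benjamini-Hochberg over all genes tested). Leaving out replicate 2 of A549 with DMSO kept the size of the change (3.07) and moved its adjusted p to 0.0534, and without replicate 3 of both treatments the change was 3.29 (adjusted p = 0.0223).

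In H1792, MDM2 stood at 6.34, 12.001 and 15.3 CPM with DMSO and at 8.52, 11.4 and 10.7 CPM with RG7112. The treated values lay within the range of the controls. The log2 fold change was -0.05 ± 0.35 (adjusted p = 0.928), with a 95% interval from -0.89 to 0.79, and its sign depended on the setting. The change in A549 exceeded that in H1792 by 3.12 ± 0.60 on the log2 scale (interaction over 12 libraries, adjusted p = 0.00604). The carboxypeptidase M gene, which overlaps MDM2 on the opposite strand, had 6 to 90 counts in the A549 libraries with RG7112 and 11 to 65 with DMSO (log2 fold change 0.07 ± 1.15, adjusted p = 0.978).

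**Figure D1:**
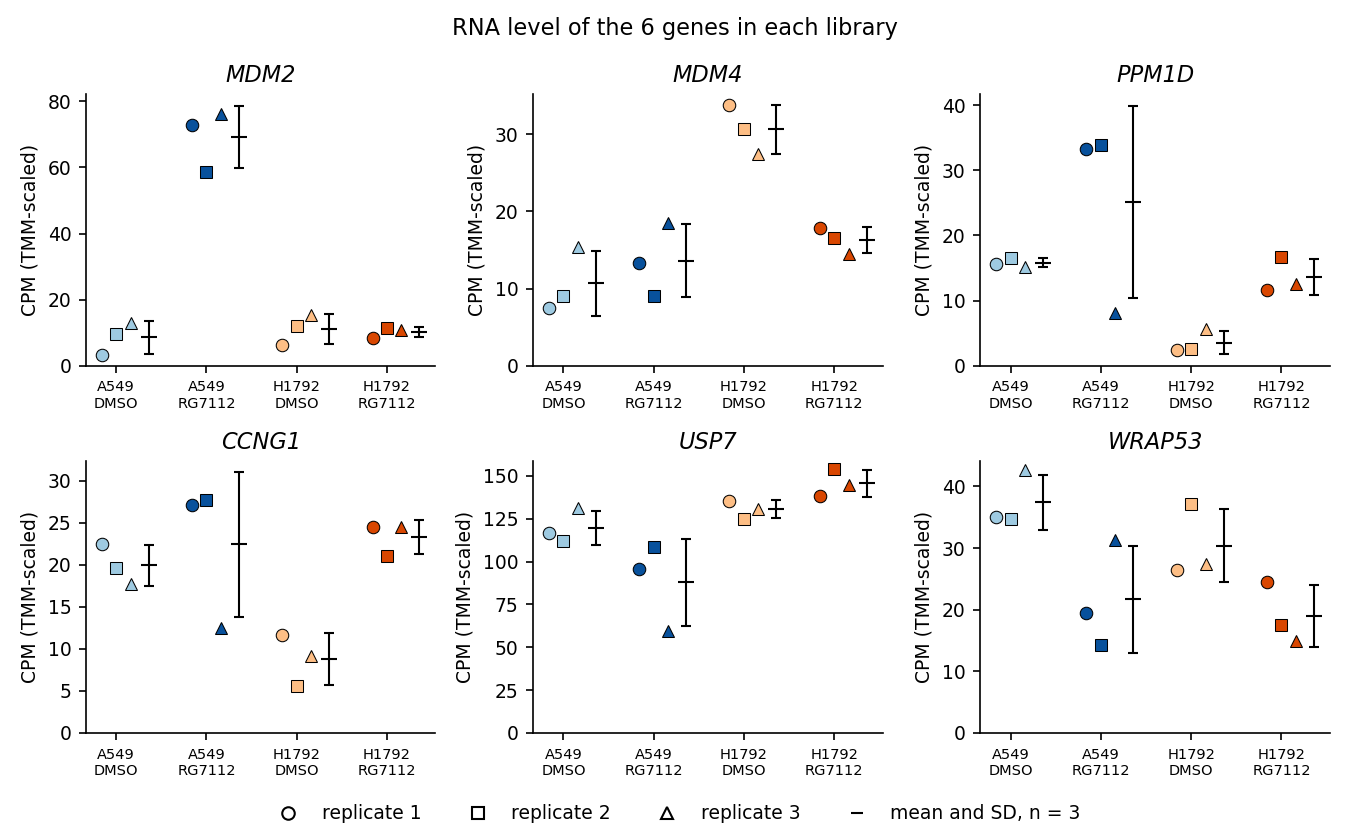
RNA level of each of the 6 genes in each library, as TMM-scaled CPM on linear axes that start at 0, for A549 and H1792 with DMSO or RG7112. Symbols are replicates 1 to 3 and the bar beside them is the mean with its SD (n = 3); MDM2 stands at 58.6 to 76.1 CPM in A549 with RG7112 and at no more than 15.3 CPM in any other group, and replicate 3 of A549 with RG7112 lies apart for PPM1D, CCNG1 and USP7.

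Of the 6 members, 1 passed as higher in A549 and 0 as lower by edgeR, beside 4.35% of the 10739 genes tested that passed as higher and 4.03% as lower. At an unadjusted p under 0.05, for which no share over all genes is given, there was 1 lower member, WRAP53, while DESeq2 and limma-trend called 0. As a DEG, with an absolute log2 fold change over 1 as well (the study's thresholds), MDM2 stood among 3.18% of genes that rose. Counting libraries instead, 3 of the 6 had no overlap between treatments (MDM2 higher, USP7 and WRAP53 lower), beside 32.4% of all genes tested. In H1792, 2 members passed as higher (PPM1D and CCNG1) and 1 as lower (MDM4), beside 17.7% and 16.5% of 9914 genes, and both risers were DEGs, beside 10.3% of genes. There 5 of 6 had no overlap, all but MDM2, beside 53.3% of all genes. In the test of the difference between the lines 1 of 6 passed, beside 21.8% of 11666 genes.

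MDM4 fell with RG7112 in H1792 (ENSG00000198625, chr1:204516379-204558120, plus strand). It stood at 33.8, 30.7 and 27.5 CPM with DMSO and at 17.8, 16.5 and 14.4 CPM with RG7112, so the treated libraries all lay below the controls. In RNA from whole cultures, fewer cells that express a gene and less RNA per cell cannot be told apart. The log2 fold change was -0.84 ± 0.17 (adjusted p = 0.0124), which is under the threshold for a DEG. With a correction for the GC content of the genes it was -1.38 ± 0.18 (adjusted p = 0.00478). In A549, MDM4 stood at 7.50, 9.04 and 15.4 CPM with DMSO and at 13.3, 9.06 and 18.5 CPM with RG7112. These ranges overlapped, and the log2 fold change was 0.36 ± 0.39 (95% interval -0.56 to 1.29, adjusted p = 0.638). The 2 responses differed by 1.28 ± 0.43, which missed the threshold (adjusted p = 0.0569) and passed it under DESeq2 (1.35, adjusted p = 0.0184), with the GC correction (1.98, adjusted p = 0.0271) and without replicate 3 of A549 (1.37, adjusted p = 0.0192).

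The ratio of MDM2 to MDM4 within a library does not depend on the scaling between libraries. With DMSO, A549 had 0.417, 1.06 and 0.839 MDM2 counts per MDM4 count, and with RG7112 it had 5.47, 6.47 and 4.12. Every treated ratio exceeded every control ratio, with a mean difference of 2.87 on the log2 scale (two-sided exact permutation test, p = 0.1, the smallest that 3 against 3 can give). In H1792 the ratio was 0.188, 0.391 and 0.556 with DMSO and 0.478, 0.688 and 0.742 with RG7112. These overlapped, with a mean difference of 0.86 (exact permutation p = 0.2). MDM2 counts thus exceeded MDM4 counts in all 3 libraries of A549 with RG7112 and in 1 of the remaining 9 libraries. The 2 genes were also compared per kb of annotated exon length, which does not allow for which of their transcripts were used. The mean log2 ratio was then -0.75 ± 0.70 (SD, n = 3) in A549 with DMSO, 2.12 ± 0.33 with RG7112, -1.81 ± 0.80 in H1792 with DMSO and -0.95 ± 0.34 with RG7112.

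**Figure D2:**
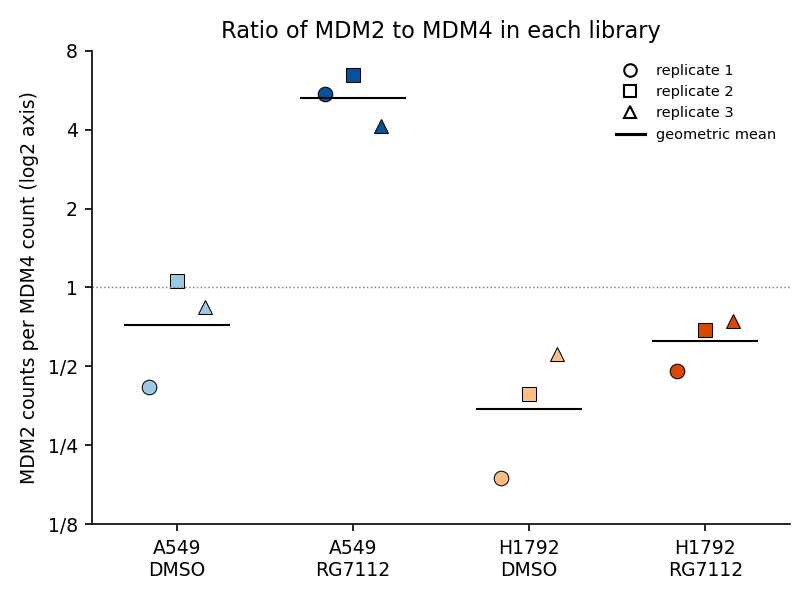
MDM2 counts per MDM4 count in each library on a log2 axis, with the geometric mean of each group as a line and the dotted line at equal counts. The 3 libraries of A549 with RG7112 lie between 4.12 and 6.47 and all others between 0.188 and 1.06.

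PPM1D rose with RG7112 in H1792 (ENSG00000170836, chr17:60600183-60666280, plus strand). It stood at 2.47, 2.54 and 5.67 CPM with DMSO, from 7 to 13 counts, and at 11.6, 16.7 and 12.6 CPM with RG7112, from 45 to 94 counts. The groups did not overlap, and the log2 fold change was 2.05 ± 0.41 (4.13-fold, adjusted p = 0.0112), which made it a DEG. With the GC correction the change was 1.73 ± 0.41 (adjusted p = 0.0232). A replicate block added to that correction gave 1.78 and ended the call (adjusted p = 0.0654). In A549 it stood at 15.6, 16.6 and 15.2 CPM with DMSO and at 33.3, 33.8 and 8.15 CPM with RG7112. Replicates 1 and 2 thus lay above all controls and replicate 3 below all of them. The log2 fold change over the 6 libraries was 0.66 ± 0.50 (adjusted p = 0.487), and without replicate 3 of both treatments it was 1.06 ± 0.19 (adjusted p = 0.0346). The 2 responses differed by -1.32 ± 0.69 (adjusted p = 0.194) and, without that pair of libraries, by -0.93 ± 0.47 (adjusted p = 0.192).

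CCNG1 also rose in H1792 (ENSG00000113328, chr5:163437569-163446151, plus strand). In H1792 it stood at 11.6, 5.54 and 9.16 CPM with DMSO and at 24.5, 21.0 and 24.4 CPM with RG7112. The treated libraries all lay above the controls, with a log2 fold change of 1.49 ± 0.31 (2.82-fold, adjusted p = 0.0126, a DEG). The call was lost with the GC correction, which gave 0.88 ± 0.30 (adjusted p = 0.0704). In A549 it stood at 22.5, 19.6 and 17.7 CPM with DMSO and at 27.1, 27.6 and 12.5 CPM with RG7112. As for PPM1D, replicates 1 and 2 lay above and replicate 3 below all controls, and the log2 fold change was 0.17 ± 0.34 (adjusted p = 0.817), or 0.39 ± 0.20 without replicate 3 of both treatments (adjusted p = 0.280). The difference between the responses was -1.26 ± 0.47 (adjusted p = 0.0790). It was -0.48 with the GC correction (adjusted p = 0.426), and it passed with library size only (-1.62, adjusted p = 0.0457) and with at least 10 counts in every sample (-1.37, adjusted p = 0.0423). Over the 12 libraries the log2 CPM of PPM1D and CCNG1 had a Pearson r of 0.877, and that of either with MDM4 was -0.843 and -0.771, as a description of libraries that share lines and treatments.

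In H1792 the fold changes of all genes ran with GC content: over 9165 genes with an annotated value, which are not independent replicates, Spearman's rho between GC content and log2 fold change was -0.472, against 0.255 over 9941 genes in A549. Pooled over all annotated transcripts of a gene, the GC content of CCNG1 was 39.8%, of MDM2 41.4%, MDM4 42.3%, USP7 44.2%, PPM1D 47.2% and WRAP53 57.4%. An exon shared by several transcripts counts several times in it. With the correction, every member but WRAP53 moved down in H1792, MDM2 to -0.65 ± 0.37 (adjusted p = 0.240) and WRAP53 up to -0.40 ± 0.22 (adjusted p = 0.231).

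**Figure D3:**
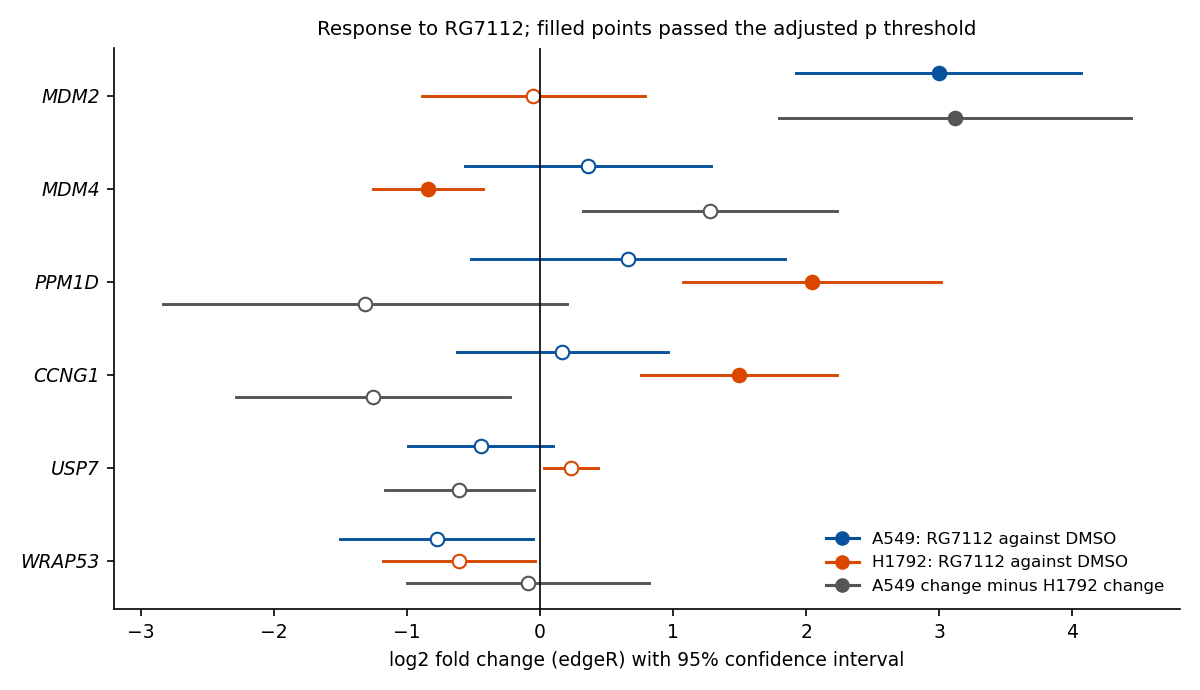
Log2 fold change of each gene with RG7112 against DMSO in A549 and in H1792, and the difference between these responses, from edgeR with 95% confidence intervals. Filled points passed an adjusted p of 0.05, which MDM2 did in A549 and in the difference, and MDM4, PPM1D and CCNG1 in H1792.

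USP7 was the most abundant of the 6 genes per kb and passed the test in neither line (ENSG00000187555, chr16:8892094-8964514, minus strand). In A549 it stood at 117, 112 and 131 CPM with DMSO and at 95.6, 109 and 59.8 CPM with RG7112. The treated libraries all lay below the controls, the nearest by little, and the log2 fold change of -0.45 ± 0.23 did not pass (adjusted p = 0.300). Without replicate 3 of both treatments it was -0.16 ± 0.11 (adjusted p = 0.411). In H1792 it stood at 136, 125 and 131 CPM with DMSO and at 138, 154 and 145 CPM with RG7112, all treated values above all controls. The log2 fold change was 0.23 ± 0.09 (adjusted p = 0.0771). It was -0.23 ± 0.08 with the GC correction (adjusted p = 0.0660), so its direction depended on the setting. The difference between the responses was -0.61 ± 0.25 (adjusted p = 0.112). It was -0.09 with the GC correction (adjusted p = 0.800) and -0.33 without replicate 3 of A549 (adjusted p = 0.109), and it passed with library size only (-0.98, adjusted p = 0.0358) and without replicate 2 of A549 with RG7112 (adjusted p = 0.0370).

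WRAP53 was lower in every treated library of both lines and passed in neither over all libraries in edgeR (ENSG00000141499, chr17:7686071-7703502, plus strand). It stood at 35.0, 34.6 and 42.6 CPM with DMSO in A549 and at 19.5, 14.3 and 31.2 CPM with RG7112. The log2 fold change was -0.78 ± 0.31 (unadjusted p = 0.0386 in edgeR, adjusted p = 0.179), and it passed with the replicate block and GC correction together (-0.98, adjusted p = 0.0422). In H1792 it stood at 26.4, 37.2 and 27.5 CPM with DMSO and at 24.5, 17.4 and 14.9 CPM with RG7112, with a log2 fold change of -0.61 ± 0.24 (unadjusted p = 0.0391 in edgeR, adjusted p = 0.0912), and it passed there without replicate 1 of H1792 with RG7112 (adjusted p = 0.0371). The responses differed by -0.09 ± 0.41, with a 95% interval from -0.9996 to 0.82. WRAP53 starts head to head with the gene that encodes p53, on the opposite strand. The libraries were made with a directional kit, and the strand setting of the authors' quantification is not given in the sources used here, so reads of overlapping transcripts may be shared between them.

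Set against each other with DMSO, the 2 lines differed in 3 of the 6 genes, beside 47.5% of all 11666 genes tested. MDM4 was lower in A549 than in H1792 (log2 fold change -1.52 ± 0.31, adjusted p = 0.00204), and PPM1D (2.19 ± 0.52, adjusted p = 0.00519) and CCNG1 (1.20 ± 0.34, adjusted p = 0.0134) were higher in A549. CCNG1 lost this call without replicate 2 of H1792 with DMSO (0.93 ± 0.35, adjusted p = 0.0583). MDM2, at a mean of 8.54 ± 4.99 CPM in A549 and 11.2 ± 4.51 in H1792 (SD, n = 3), differed by -0.36 ± 0.43 (95% interval -1.31 to 0.58, adjusted p = 0.512). USP7 (-0.12 ± 0.18) and WRAP53 (0.30 ± 0.29) did not pass either, but USP7 passed as lower in A549 with the GC correction (-0.37, adjusted p = 0.0412) and with GC and length correction (-0.43, adjusted p = 0.0226).

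With RG7112, 2 of the 6 genes differed between the lines, beside 53.5% of all genes tested. MDM2 was higher in A549 (2.76 ± 0.43, adjusted p = 0.000243) and USP7 lower (-0.73 ± 0.18, adjusted p = 0.00530). MDM4, which differed with DMSO, stood at means of 13.6 ± 4.71 CPM in A549 and 16.3 ± 1.71 CPM in H1792 and did not pass (-0.24 ± 0.31, 95% interval -0.92 to 0.43). CCNG1 stood at 22.4 ± 8.60 and 23.3 ± 2.02 CPM (-0.06 ± 0.32, 95% interval -0.77 to 0.65). PPM1D, at 0.87 ± 0.46, did not pass over all libraries (adjusted p = 0.135) and passed as higher in A549 without replicate 3 of that line (1.29 ± 0.31, adjusted p = 0.00689).

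The order of the genes within a group was set by CPM per kb of annotated exon length. In A549 with DMSO, USP7 led at 15.0 ± 1.26 CPM per kb (SD, n = 3), followed by WRAP53 (7.35), CCNG1 (6.44), PPM1D (3.13), MDM4 (0.969) and MDM2 (0.643), and the neighbours WRAP53 and CCNG1, and MDM4 and MDM2, overlapped. With RG7112, MDM2 moved from the last place to the third, at 5.21 ± 0.70 CPM per kb, behind USP7 and CCNG1 and with ranges that overlapped those of its neighbours. In terms of all 10752 genes ranked, MDM2 went from percentile 15.9 to percentile 60.4. In H1792 with DMSO the order was USP7, WRAP53, CCNG1, MDM4, MDM2 and PPM1D, from 16.4 down to 0.705 CPM per kb, with overlaps between CCNG1 and MDM4 and between MDM2 and PPM1D. With RG7112 it was USP7, CCNG1, WRAP53, PPM1D, MDM4 and MDM2, the last at 0.768 ± 0.11 CPM per kb and percentile 22.3, and the ranges of WRAP53 and PPM1D overlapped.

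Other p53-induced genes were read from a list of 40 that leaves out the members. In A549, beside 4.35% of all genes higher and 4.03% lower in edgeR, 10 of the 34 tested rose and 0 fell in edgeR (22 and 0 at an unadjusted p under 0.05, 16 and 0 in DESeq2), with a median log2 fold change of 1.07 beside -0.01 over all genes tested. These shares hold for the edgeR count only. DESeq2 passed 1438 of all genes in A549 where edgeR passed 900, and the share at an unadjusted p is not given here. TP53I3, an oxidoreductase gene, rose by 2.09 ± 0.13 (adjusted p = 0.000348), from a mean of 353 to 1503 CPM. BBC3, which encodes the apoptosis protein PUMA, rose by 1.76 ± 0.18 (adjusted p = 0.00221), and TRIM22 by 2.88 ± 0.38 (adjusted p = 0.00570). CDKN1A, the gene of the cell cycle inhibitor p21, went from 45.0, 42.5 and 24.2 CPM with DMSO to 203, 190 and 942 CPM with RG7112 (3.58 ± 0.70, adjusted p = 0.0252). Without replicate 3 of both treatments the change of CDKN1A was 2.18 ± 0.10 (adjusted p = 0.00171), and the call was lost when any 1 of the 3 DMSO libraries of A549 was left out (adjusted p up to 0.0960). The count of 10 became 15 without replicate 3 of both treatments, 16 under DESeq2, and 4 to 11 when 1 library was left out, with the lowest count without replicate 2 of A549 with DMSO.

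In H1792, 6 of 24 tested p53-induced genes rose and 3 fell, beside 17.7% of all genes tested that passed as higher and 16.5% as lower, with a median log2 fold change of 0.31 beside 0.01 over all genes. PLK2, a kinase gene, rose by 1.23 ± 0.29 (adjusted p = 0.0196), RRM2B, a ribonucleotide reductase subunit, by 2.38 ± 0.61 (adjusted p = 0.0249), and PTP4A1, a phosphatase gene, by 1.19 ± 0.35 (adjusted p = 0.0390). BAX (-0.56 ± 0.11, adjusted p = 0.01004), TP53I3 (-0.58 ± 0.15, adjusted p = 0.0274) and DDB2 (-1.18 ± 0.34, adjusted p = 0.0365) fell, BAX being an apoptosis gene and DDB2 a DNA repair gene. Of these 6, DDB2 alone passed with the GC correction (-1.15, adjusted p = 0.0452), while BAX (-0.22, adjusted p = 0.0996) and TP53I3 (-0.38, adjusted p = 0.116) did not. Under that correction 1 gene of the list rose, GDF15, and 3 fell, DDB2, RPS27L and FBXO22, of which GDF15, RPS27L and FBXO22 are named after their values were seen. CDKN1A stood at 5.99, 2.54 and 14.4 CPM with DMSO and at 9.82, 10.1 and 3.72 CPM with RG7112 (0.15 ± 0.69, adjusted p = 0.882). The number of rising genes fell to 0 when either replicate 2 or replicate 3 of H1792 with RG7112 was left out. In the edgeR test of the difference, 12 of 34 had a higher change in A549 and 0 a lower one (9 and 0 with the GC correction, 15 and 0 at an unadjusted p under 0.05, 13 and 0 in DESeq2). Over all 11666 genes, 21.8% passed that edgeR test in either direction at an adjusted p under 0.05. Only 24 of the 34 genes had enough counts to be tested within H1792. The rest were low there, among them CYFIP2, which is 1 of the 12 and had means of 1.29 CPM with DMSO and 0.769 CPM with RG7112 in H1792.

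**Figure D4:**
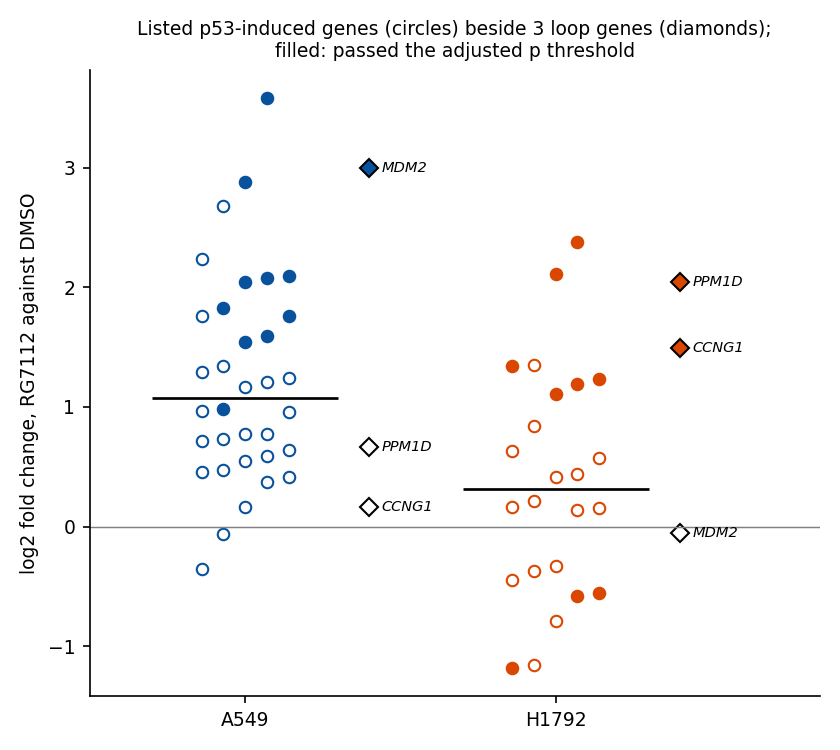
Log2 fold change with RG7112 of each tested gene of the p53-induced list (circles, 34 in A549 and 24 in H1792, median as a line) and of MDM2, PPM1D and CCNG1 (diamonds), filled where the adjusted p was under 0.05. In A549 the filled circles and MDM2 lie above 0, and in H1792 filled circles lie on both sides while PPM1D and CCNG1 are filled and MDM2 is not.

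Around the loop, 7 further lists held 94 genes tested in A549, of which 0 rose and 10 fell in edgeR (2 and 18 at an unadjusted p under 0.05, 0 and 15 in DESeq2), and 96 tested in H1792, of which 27 rose and 23 fell. Beside the edgeR counts, 4.35% of all genes tested passed as higher and 4.03% as lower in A549, and 17.7% and 16.5% in H1792. Counts at an unadjusted p or in DESeq2, here and below, are given without a share over all genes. The genes below are those of each list with the smallest p.

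Of genes for ubiquitin control of p53 and MDM2, 1 of 26 tested fell in A549, the proteasome activator PSME3 (-0.49 ± 0.12, adjusted p = 0.0454). In H1792, 9 of 26 rose and 3 fell (median log2 fold change 0.29). Among the risers were the ubiquitin-conjugating enzyme UBE2D3 (0.84 ± 0.09, adjusted p = 0.00282), the p53 deubiquitinase USP10 (0.84 ± 0.09, adjusted p = 0.00301) and the ligase UBE3A (2.22 ± 0.30, adjusted p = 0.00436), while the deubiquitinases USP4 (-0.67 ± 0.14, adjusted p = 0.0133) and USP2 (-1.06 ± 0.27, adjusted p = 0.0244) and the ligase STUB1 (-0.97 ± 0.29, adjusted p = 0.0436) fell. With the GC correction 7 genes of this list rose and 1 fell, UBE2D3 was at 0.28, and USP2 (-0.90, adjusted p = 0.0522) and STUB1 (-0.48, adjusted p = 0.217) did not pass. Of inhibitors of MDM2 and nucleolar sensors, 2 of 16 fell in A549, NPM1 (nucleophosmin, -1.02 ± 0.13, adjusted p = 0.00495) and RPS14 (-0.80 ± 0.17, adjusted p = 0.0296). In H1792, 10 of 17 fell, led by the ribosomal protein genes RPL11 (-0.79 ± 0.10, adjusted p = 0.00362), RPL23 (-0.78 ± 0.10, adjusted p = 0.00428) and RPL26 (-0.52 ± 0.09, adjusted p = 0.00637), and 4 rose, among them NUMB (0.87 ± 0.11, adjusted p = 0.00394), NPM1 (0.22 ± 0.06, adjusted p = 0.0281) and YY1 (1.23 ± 0.38, adjusted p = 0.0466). With the GC correction 1 gene of this list rose and 10 fell in H1792. NPM1 then passed as lower (-0.35, adjusted p = 0.0280), and YY1 did not pass (0.90, adjusted p = 0.122). The ribosomal protein genes have near-identical pseudogenes that may share reads.

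Among kinases that act on p53, MDM2 and MDM4, 2 of 17 fell in A549, the mitotic kinases AURKA (-2.46 ± 0.20, adjusted p = 0.000881) and PLK1 (-2.87 ± 0.41, adjusted p = 0.00820). In H1792, CSNK1A1, the casein kinase that partners MDM4 (1.13 ± 0.14), MAPKAPK2 (1.55 ± 0.27) and DYRK2 (0.62 ± 0.17) rose, with adjusted p from 0.00375 to 0.0307, and PRKDC (-0.66 ± 0.15), PLK1 (-1.31 ± 0.31) and CSNK1E (-0.34 ± 0.09) fell, with adjusted p from 0.0169 to 0.0331. With the GC correction DYRK2 was at 0.19 (adjusted p = 0.396) and CSNK1E at -0.02 (adjusted p = 0.883), so neither passed. Of 14 genes for acetylation and methylation of p53, PRMT5 fell in A549 (-0.69 ± 0.14, adjusted p = 0.0265), and 4 rose in H1792, among them CREBBP (1.25 ± 0.20), KMT5A (1.41 ± 0.24) and HDAC2 (0.43 ± 0.08), with adjusted p from 0.00634 to 0.0102, the sign of HDAC2 turning with the GC correction (-0.21, adjusted p = 0.134).

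Of the relatives and PP2A partners of CCNG1, 0 of 9 passed in A549 in edgeR (1 at an unadjusted p under 0.05, 1 in DESeq2), and all 7 tested in H1792 passed, 4 higher and 3 lower. The PP2A subunit genes PPP2R5E (2.10 ± 0.29), PPP2CA (1.09 ± 0.15) and PPP2R5C (0.33 ± 0.09) rose there, with adjusted p from 0.00448 to 0.0315, and the subunit genes PPP2R1A (-0.64 ± 0.06) and PPP2R5D (-2.15 ± 0.46) and the cyclin G-associated kinase GAK (-0.71 ± 0.19) fell, with adjusted p from 0.00278 to 0.0320. With the GC correction 2 of the 7 were higher and 2 lower, while PPP2R5C (-0.19, adjusted p = 0.177) and GAK (-0.36, adjusted p = 0.242) did not pass. Of the PPM phosphatases related to PPM1D, 0 of 5 passed in A549 in edgeR (0 at an unadjusted p under 0.05, 0 in DESeq2), and in H1792 PPM1B (1.88 ± 0.29) and PPM1F (1.86 ± 0.41) rose and ILKAP (-1.57 ± 0.46) fell among 7 tested, with adjusted p from 0.00564 to 0.0392. Partners of WRAP53 in telomerase and Cajal bodies fell for 4 of 7 tested in A549 (median log2 fold change -0.91), among them NOLC1 (-1.26 ± 0.15), DKC1 (dyskerin, -1.49 ± 0.19) and FBL (fibrillarin, -1.21 ± 0.21), with adjusted p from 0.00415 to 0.0170. In H1792 FBL (-0.76 ± 0.07), RUVBL2 (-0.73 ± 0.09) and RUVBL1 (-0.92 ± 0.24) fell and NOLC1 rose (0.60 ± 0.08) among 8 tested, with adjusted p from 0.00272 to 0.0261.

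The genes whose log2 CPM ran most like each member over the 12 libraries were found among 11666 genes, as a description of libraries that share 2 lines and 2 treatments. For MDM2 they were CFAP74 (Pearson r = 0.980), DNHD1 (0.955) and NATD1 (0.930). For MDM4 they were ST3GAL2 (0.976), AC015802.6 (0.966) and VAC14 (0.961), for PPM1D AHCYL2 (0.979), WWP1 (0.977) and PCMTD1 (0.968), and for CCNG1 GATAD1 (0.970), FAM91A1 (0.964) and FZD6 (0.958). For USP7 they were CEP57 (0.972), TMEM237 (0.967) and SDHD (0.955), and for WRAP53 CSKMT (0.954), ENSG00000274081 (0.927) and EMC9 (0.921).

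**Figure D5:**
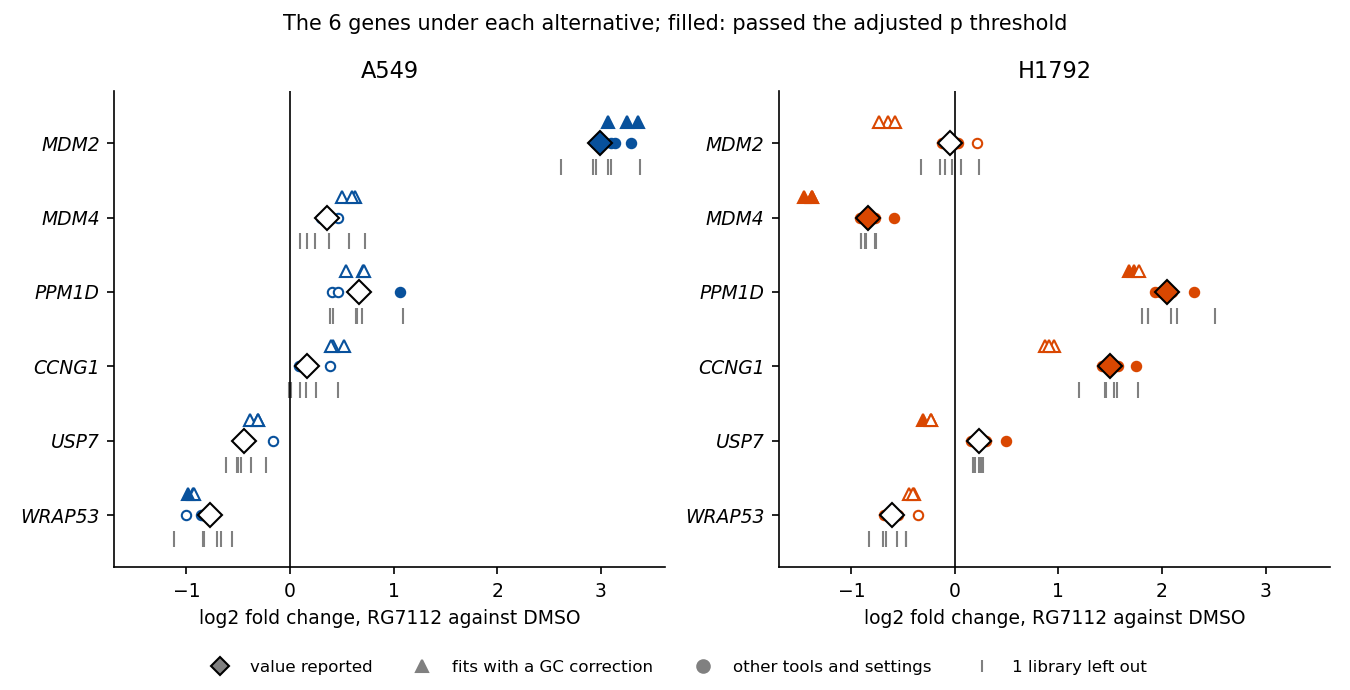
Log2 fold change of each gene with RG7112 in A549 and in H1792 as reported (diamonds), with a GC correction (triangles), under other tools and settings (circles) and with 1 library left out (ticks, drawn without a call). Filled symbols had an adjusted p under 0.05; MDM2 in A549 stays between 2.62 and 3.38 throughout, and in H1792 the triangles of USP7 lie on the other side of 0 from its diamond.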

How the data were processed

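Poly-A RNA of 12 libraries (A549 and H1792 cells, 3 replicates per treatment) was sequenced from both ends, for which the labels and the study's methods give different read lengths and instruments. The authors deposited estimated counts per gene as whole numbers, made with kallisto 0.45.0 against Ensembl transcripts of GRCh38 and summed per gene with biomaRt annotation, without normalization between libraries. The counts are not UMI counts, so duplicate reads cannot be recognized, and reads shared by overlapping or near-identical transcripts are divided by estimation. All 12 columns were mapped to samples by line, compound and replicate number.

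Symbols, positions, exon length and GC content came from GENCODE v29 (GRCh38), in which 18011 of the identifiers were found, and promoter letters from RefSeq (GRCh38.p14). Windows were searched for the p53 response element without a spacer, counting mismatches. No genome or protein sequence was used here.

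In R 4.3.3, low genes were left out by filterByExpr (count of 10, total of 15) and the rest tested with the quasi-likelihood test of edgeR 4.0.16 (TMM, robust), with Benjamini-Hochberg adjustment over all genes tested. Responses were fitted per cell line, and differences of responses and of lines over all 12 libraries. Genes passed at an adjusted p under 0.05, and DEGs also had an absolute log2 fold change over 1. SEs were derived from the test statistic. For ratios an exact permutation test (two-sided) was used, whose smallest p with 3 against 3 is 0.1. The GC correction was a loess curve per library (span 0.5). Alternatives were DESeq2 1.42.0, limma-trend (limma 3.58.1), other normalizations and filters, GC and length corrections, the replicate number as a block, stricter thresholds and leaving out libraries. The GC correction of the lists and the ordering by longest transcript, which left the order of the genes as it was in 3 of 4 groups, were chosen after seeing the data. Fits were tested on simulated data with known changes. These were large and planted in well-counted genes only, so the simulation says nothing about small changes or low counts.

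Libraries of 1 group differed by 5.38 to 25.6 times the counting noise (chi-square per degree of freedom), so none was counted as a duplicate. Named genes were all 6 members, CDKN1A, up to 3 passing genes per direction, list and response with the smallest p, and for each member the 3 genes with the highest Pearson r of log2 CPM (prior count 2). The members and lists were chosen with earlier results of these data known. Counts of the gene encoding p53 are not analysed here.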

Additional observations from a re-analysis of the deposited data

Results flagged for a closer look

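The response of MDM2 to RG7112 differed between the lines by 3.12 ± 0.60 on the log2 scale (A549 minus H1792, interaction test of edgeR over 12 libraries, adjusted p = 0.00604), with a higher level in every treated library of A549 and overlapping levels in H1792. The adjusted p ranged from 0.00372 to 0.0177 when 1 library was left out.

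The response of CDKN1A differed by 3.40 ± 1.08 (adjusted p = 0.0450), and 1 library, replicate 3 of A549 with RG7112 at 942 CPM, lay far above the other treated libraries at 203 and 190 CPM. Without replicate 3 of A549 in both treatments the difference was 1.99 ± 0.77 (adjusted p = 0.0965). The call did not rest on that library alone: it was lost in 9 of the 12 fits that left out 1 library (adjusted p from 0.0326 to 0.156 over all 12), and also with the GC correction (2.88, adjusted p = 0.0797), library size only (2.93, adjusted p = 0.0623), no filter on low counts (3.33, adjusted p = 0.0758) and limma-trend (2.97, adjusted p = 0.0503).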

How the results depend on the processing

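Of 692 values of the members under alternatives, 625 kept their direction and their side of the threshold. The stricter thresholds among these alternatives reuse the main fits, so they could neither turn a direction nor add a call. In A549, 900 genes passed, and 1438 did under DESeq2, 1557 with all 12 libraries in one fit and 296 at an adjusted p under 0.01. MDM2 (log2 fold change 2.99) failed only that stricter threshold among settings on all libraries, which left 0 members passing in A549. There 2 members passed with the block and GC correction together and without replicate 3 of both treatments, fits whose share over all genes is not given. With 1 library left out, 321 to 725 genes and 0 to 2 members passed in A549, and MDM2 ran from 2.62 to 3.38 and CCNG1 from -0.0068 to 0.46. In H1792, 3384 genes passed, and 1383 did at an adjusted p under 0.01 (0 members), 1450 as DEGs, and 1851 to 3377 with 1 library left out. MDM2 in H1792 turned positive with library size only (0.22), at least 10 counts in every sample (0.028) and limma-trend (0.015), and ran from -0.33 to 0.23 with 1 library left out, as CDKN1A did from -0.31 to 0.99. USP7 in H1792 turned to -0.23 with the GC correction and to -0.30 with GC and length correction (adjusted p = 0.0333), and it passed as higher with library size only (0.49, adjusted p = 0.0103), a scaling that moved the median of all genes in H1792 to 0.27.

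In the difference of responses, 2539 genes and 1 member passed. At an adjusted p under 0.01 there were 848 genes. There were 2 members under DESeq2, RLE size factors, GC correction, GC and length correction and without replicate 3 of A549. There were 3 with library size only or at least 10 counts in every sample. Library size only moved the median difference over all genes to -0.37. Where a count of members stands without a count of all genes, here and below, its share over all genes is not given. With 1 library left out, 1584 to 2978 genes and 1 to 3 members passed, and WRAP53 ran from -0.44 to 0.088. In DMSO, the filter of at least 10 counts in every sample left 3526 genes passing, USP7 turned to 0.13 with library size only and to 0.039 with that filter, and MDM2 ran from -0.76 to 0.024 with 1 library left out. In RG7112, that filter left 3930 genes and turned CCNG1 to 0.0018, and 1 member passed as a DEG. There MDM4 turned to 0.22 with GC correction and 0.080 with GC and length correction, CCNG1 to 0.44 and 0.55, and WRAP53 to -0.42 and -0.37. Without replicate 3 of A549, CCNG1 was 0.23 and WRAP53 -0.14 there, and with 1 library left out CCNG1 ran from -0.25 to 0.22 and WRAP53 from -0.15 to 0.41. The causes were not tested. By library size only, the mean level of MDM4 in H1792 with DMSO was 26.7 CPM, PPM1D in A549 with DMSO 16.5, CCNG1 in H1792 with RG7112 25.6, and USP7 in H1792 113.9 with DMSO and 159.97 with RG7112. PPM1D had fewer than 10 counts in a library and gave no value in H1792 or between the lines under that filter. Low counts limit MDM2 and PPM1D most, with 10 and 7 counts in their lowest libraries.

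Samples share replicate numbers. Same-numbered samples deviated together (r over 0.1) in 2 of 3 pairs of A549 (0.0609 to 0.273) and in 0 of 3 of H1792 (-0.0238 to 0.00346). Pairs with different numbers ran from -0.209 to 0.136 in A549 and from -0.0156 to 0.0177 in H1792. In A549, only the pair of replicate 3 (0.273) lay above all pairs with different numbers. With the replicate number as a block, 1840 genes passed in H1792, MDM2 in H1792 was 0.0086, 2 members passed in the difference (MDM4 1.28, adjusted p = 0.0342), and CDKN1A missed the threshold in A549 (adjusted p = 0.0672) and in the difference (adjusted p = 0.152). The block changed no other call of a member. With the block and GC correction together, 1004 genes and 1 member passed in H1792, where USP7 was -0.23, and 1521 genes and 2 members passed in the difference. Between the lines in RG7112 that fit gave 0.13 for MDM4, 0.43 for CCNG1 and -0.44 for WRAP53.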
